A study of Mus musculus with 4 samples.

Results

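The heavy chain variable (V) segments of mouse immunoglobulin were read here as a gene family across 4 blood libraries. The members are all genes whose symbol in the deposited feature list begins with Ighv and a digit, which gave 185 of 32285 genes. The study profiled mononuclear cells of peripheral blood, taken by heart puncture and separated on a density gradient, with droplet 3′ single-cell RNA sequencing. It set 2 inbred strains side by side, BL/6 and SM/J, each at 12 and at 20 months of age, with no treatment named in the labels. Both ages of a strain were tagged and run as 1 multiplexed 10x sample, so an effect of strain and one of the run cannot be told apart. The 4 deposited count matrices, one per strain and age, are called libraries below. Each carries 3 tag oligos, which divide its cells into 3 aliquots, but nothing in the sources used here says whether a tag is an animal. Aliquots are therefore given as a spread, each strain and age counts as 1 sample, and no difference between libraries has a test. Exact 95% intervals cover counting error only.

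Each developing B cell joins 1 V segment to a D and a J segment to make its heavy chain, and then joins a light V segment to a J segment to make its light chain. The V segment codes for most of the antigen-binding face of the chain, and cells that descend from 1 B cell keep the same heavy and light pair, so V usage records how diverse a B cell population is. In mouse blood most B cells are follicular, while B-1 cells, a self-renewing population of the body cavities, often share receptors; the pairing of Ighv11-2 with Igkv14-126 is a classic B-1 receptor for phosphatidylcholine.

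The annotation (GENCODE M21, build GRCm38, which is mm10) matched all 185 members under the same symbol, at chr12:113572927-116010093. It lists 113 as V genes and 70 as V pseudogenes, all on the minus strand; the other 2 entries are second identifiers of Ighv5-8 and Ighv1-13, on the plus strand. Family 1 is the largest of 16 families, with 93 members of which 39 are pseudogenes, followed by family 5 with 22 and family 8 with 16. The results turn on 7 segments, each a V gene of that strand: Ighv2-5 (chr12:113685482-113686045), Ighv1-66 (chr12:115593110-115593591), Ighv11-2 (chr12:114048241-114048812), Ighv11-1 (chr12:113981879-113982341), Ighv7-1 (chr12:113896408-113896946), Ighv14-1 (chr12:113931953-113932382) and Ighv2-2 (chr12:113588267-113588702). The last 150 bases of their annotated transcripts, 5′ to 3′ in the sense of the transcript, are printed because they show how far apart the segments that led SM/J cells are from each other. Capitals mark the final TGT, the codon of the conserved cysteine that closes the segment; in Ighv11-2 and Ighv11-1 they mark instead the 2 bases at which this near-identical pair differs within the printed stretch.
Ighv2-5: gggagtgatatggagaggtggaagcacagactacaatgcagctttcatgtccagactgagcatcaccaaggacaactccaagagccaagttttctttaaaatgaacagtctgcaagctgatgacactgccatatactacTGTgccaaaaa
Ighv1-66: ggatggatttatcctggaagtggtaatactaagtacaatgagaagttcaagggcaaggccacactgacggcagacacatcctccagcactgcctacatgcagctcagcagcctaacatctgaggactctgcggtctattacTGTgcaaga
Ighv11-2: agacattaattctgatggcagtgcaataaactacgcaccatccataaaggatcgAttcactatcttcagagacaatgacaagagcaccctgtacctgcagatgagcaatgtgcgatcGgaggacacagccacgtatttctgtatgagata
Ighv11-1: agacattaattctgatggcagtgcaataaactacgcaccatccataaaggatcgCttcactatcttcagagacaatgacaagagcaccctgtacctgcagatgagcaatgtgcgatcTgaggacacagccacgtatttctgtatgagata
Ighv7-1: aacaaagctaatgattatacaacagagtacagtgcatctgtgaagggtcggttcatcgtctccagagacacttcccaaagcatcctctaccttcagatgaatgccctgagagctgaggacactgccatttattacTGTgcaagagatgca
Ighv14-1: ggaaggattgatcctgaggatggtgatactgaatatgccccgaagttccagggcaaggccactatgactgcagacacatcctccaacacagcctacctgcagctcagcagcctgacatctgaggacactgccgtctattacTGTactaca
Ighv2-2: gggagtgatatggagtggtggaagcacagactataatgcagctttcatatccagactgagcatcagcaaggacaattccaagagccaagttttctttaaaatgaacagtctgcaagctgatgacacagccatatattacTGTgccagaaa

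Over the last 290 bases, Ighv2-5 was 59.4% identical to Ighv1-66 and 56.7% identical to Ighv11-2, and Ighv1-66 was 58.9% identical to Ighv11-2. The closest of the 113 V genes to Ighv2-5 was Ighv2-4 at 97.6% (7 differences). For Ighv1-66 it was Ighv1-84 at 95.5% (13 differences). Ighv11-2 and Ighv11-1 were 98.6% identical (4 differences), and the next V gene to Ighv11-2, Ighv4-1, was at 76.2%. Ighv14-1 and Ighv14-4 were 97.2% identical, whereas Ighv7-1 and Ighv14-1 were at 59.0%. Ighv2-2 was 96.9% identical to Ighv2-5, and Ighv14-2 as much to Ighv14-1. Counts of Ighv11-1 and Ighv11-2, of Ighv14-1, Ighv14-4 and Ighv14-2, and of Ighv2-5, Ighv2-4 and Ighv2-2 are therefore uncertain within each set. The reference is that of C57BL/6, and reads of SM/J were counted against it, so an SM/J segment without a close counterpart may be lost or moved to a similar segment.

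After filters on cells, the 4 libraries held 2407 to 3398 cells and 14250603 to 30627356 gene UMIs (unique molecular identifiers, 1 per captured RNA molecule). No cell barcode was shared within a 10x sample, and 1 to 3 were shared between libraries of the 2 runs. B cells, taken as cells with 1 or more UMI of the receptor partner Cd79a and fewer than 10 of the joining chain Jchain, numbered 2039 and 1041 for BL/6 (12, then 20 months) and 1348 and 1671 for SM/J. Their median depth was 3689, 3521, 4372 and 9545 UMIs in the same order, so the B cells of SM/J at 20 months held most UMIs. This was not so for T cells of SM/J (Cd3e without Cd79a), with medians of 4563.5 at 12 months and 4272 at 20 months. In each of the clusters of B cells described below all 7 B cell markers were seen (in 10% of cells or more) and 0 of 7 T cell markers, except for Cd3g in the Sox5 cluster. A marker is seen more easily in deep cells, so markers are also counted where their mean level reached 10% of that in the cluster with the highest. Of 6 monocyte markers 1 to 4 were seen in these clusters, Lyz2 in each (in 63.9% of the Zcwpw1 cluster's cells at 20 months in SM/J, at 105.5 CPM), and 0 reached the level, apart from Nr4a1 in the Fcer2a cluster. Cells with a Cd3e, Lyz2 or Nkg7 UMI were left out in 1 alternative, given in the section on processing. The part of the monocyte markers alone was not tested.

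A 3′ library reads the constant end of a transcript, so few UMIs fall in the V segment. Of the 185 members 122 had a UMI in the kept cells and 63 had none, 9 of which are annotated as genes and not pseudogenes. The members summed to 3546 UMIs, of which pseudogenes gave 90 (2.54%). At least 1 heavy V UMI was seen in 461 of 2039 B cells of BL/6 at 12 months (22.6%, 95% interval 20.8 to 24.5), in 238 of 1041 at 20 months (22.9%), in 308 of 1348 of SM/J at 12 months (22.8%) and in 619 of 1671 at 20 months (37.0%, 34.7 to 39.4). With every cell thinned to 2000 UMIs, which left out 16 to 33 shallower cells per library, the shares were 12.2%, 12.0%, 10.9% and 11.9%. The higher share of SM/J at 20 months was thus not seen at equal depth. In cells that should lack the transcripts the share was 0% to 0.680% in T cells (Cd3e without Cd79a, median depths 4272 to 5274 UMIs) and 0% to 0.752% in myeloid cells (Lyz2 without Cd79a, 5377 to 8512 UMIs).

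A B cell was assigned to a segment when that segment had 2 or more UMIs and more than any other. This held for 75, 39 and 26 B cells of BL/6 at 12 months, BL/6 at 20 months and SM/J at 12 months, and for 241 of SM/J at 20 months. Of the V UMIs in assigned cells 90.0% to 96.8% came from the leading segment. Because so few cells pass, usage was also counted over cells led by a segment at 1 or more UMI with no tie, which gave 448, 228, 285 and 589 cells in the same order.

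Over all clusters together BL/6 B cells used many segments, none of them often, at both ages. Over cells led at 1 or more UMI Ighv11-2 came first at 12 months, with 22 of 448 (4.91%). Of those 22, 21 lay in 1 cluster described below. At 20 months Ighv1-26 came first, with 15 of 228 (6.58%). At 12 months the 75 assigned cells spread over 44 segments. Ighv1-82 held 5 of them (6.67%, 2.20 to 14.9), and Ighv1-64, Ighv1-76 and Ighv6-3 held 4 each (5.33%). At 20 months the 39 assigned cells spread over 25 segments, with 4 in Ighv1-26 (10.3%, 2.87 to 24.2) and 3 each in Ighv3-6 and Ighv9-3. The effective number of segments (the inverse Simpson index, which is the number of equally used segments that would give the same evenness) was 32.1 and 19.8 over assigned cells, and 45.6 and 39.7 over cells led at 1 or more UMI.

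SM/J B cells at 20 months were led by 3 segments. Of 241 assigned cells Ighv2-5 held 119 (49.4%, 42.9 to 55.9), Ighv1-66 held 54 (22.4%, 17.3 to 28.2) and Ighv11-2 held 37 (15.4%, 11.05 to 20.5), together 210 (87.1%). The next were Ighv2-2 with 9 cells, then Ighv1-47 and Ighv3-2 with 3 each. The effective number was 3.13. Since it grows with the cells counted, the number of segments expected in 26 assigned cells was also computed: 21.1 and 19.2 for the younger and older BL/6 library, 17 and 5.94 for those of SM/J. The same 3 segments held 3 of 75, 4 of 39 and 3 of 26 assigned cells in the other libraries.

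The order among the 3 depends on what is counted. Over cells led at 1 or more UMI, Ighv2-5 held 174 of 589 (29.5%), Ighv11-2 held 129 (21.9%) and Ighv1-66 held 70 (11.9%), together 63.3%. Ighv1-66 came first, with 59.4% of 32 cells, where assignment needed 5 or more UMIs, and with 39.1% of 46 cells where cells above 5% mitochondrial UMIs were left out. In the 3 aliquots Ighv2-5 held 26.4% to 34.1% of cells led, Ighv11-2 held 19.7% to 23.0% and Ighv1-66 held 9.83% to 13.4%. In the other libraries no aliquot passed 2.22% for Ighv2-5 or Ighv1-66, or 6.43% for Ighv11-2.

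**Figure D1:**
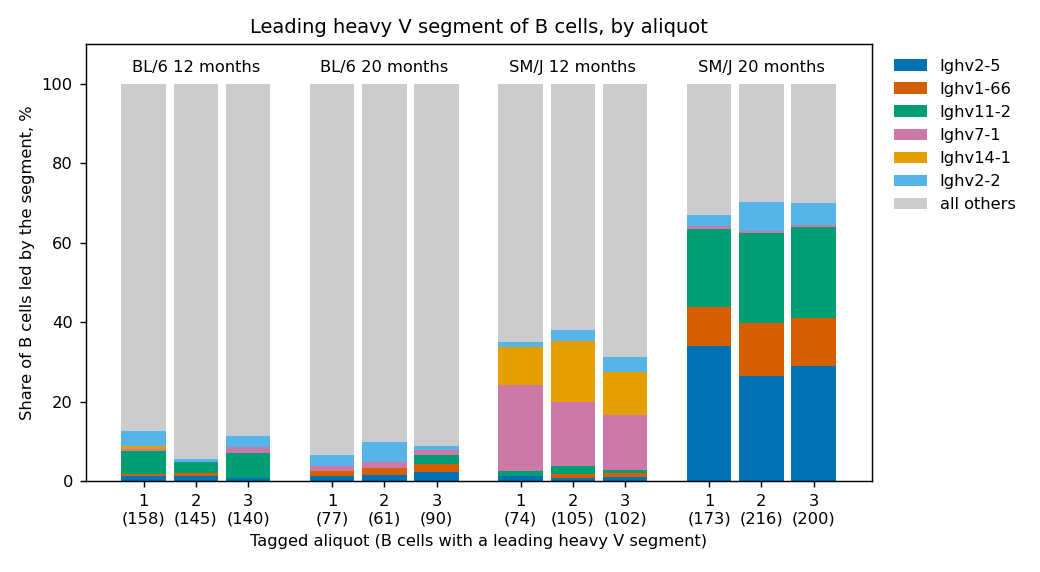
Share of B cells led by a heavy V segment at 1 or more UMI, in percent (vertical axis), for each of the 12 aliquots (bars, 3 per library), with the named segments as coloured layers and all others in grey. All 3 aliquots of SM/J at 20 months show Ighv2-5, Ighv11-2 and Ighv1-66 as their 3 largest named layers, and all 3 of SM/J at 12 months show Ighv7-1 and Ighv14-1.

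SM/J at 12 months had another pair of leading segments. Over cells led at 1 or more UMI, Ighv7-1, known from antibodies to phosphorylcholine, held 47 of 285 (16.5%, 12.4 to 21.3; aliquots 13.7% to 21.6%). Ighv14-1 held 34 (11.9%, 8.405 to 16.3; aliquots 9.46% to 15.2%), and Ighv14-4, Ighv3-2, Ighv4-2 and Ighv9-3 held 10 each. Most of these cells had a single UMI, so few were assigned: Ighv14-1 led with 4 of 26 cells (15.4%, 4.36 to 34.9), and Ighv11-2, Ighv3-2, Ighv3-8, Ighv4-1, Ighv4-2 and Ighv5-17 held 2 each. The effective number over cells led at 1 or more UMI was 18.2, against 6.44 at 20 months. Ighv3-2 and Ighv4-2 are annotated as pseudogenes in the C57BL/6 reference. In B cells of SM/J at 12 months they had 15 and 16 of 366 heavy V UMIs, against 0 and 1 UMIs in BL/6 at that age. Whether SM/J reads of other segments were counted there was not tested.

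The segments followed clusters of cells that were made without any immunoglobulin gene. Clusters are called by their leading genes. In SM/J at 20 months 805 B cells lay in a cluster led by Zcwpw1, Gnb3 and Krt18, in which 8 of 9 B-1 markers were seen, all but Cd5. Of these 5 also reached the level (Bhlhe41, Zbtb32, Tnfrsf13b, Plscr1 and Ctla4), while Itgam, in 68.3% of the 805 cells, and Cd9, in 29.9%, did not. Of 5 follicular markers 1 was seen (Ighd, in 11.6%) and 0 reached the level, and of 6 markers of age-associated B cells 3 did both. Of 8 plasma cell markers 6 were seen (Jchain, Xbp1, Prdm1, Irf4, Mzb1 and Derl3) and 4 reached the level. It held 15 B cells of SM/J at 12 months and 0 of BL/6. Of its 186 assigned cells at 20 months 110 had Ighv2-5 (59.1%, 51.7 to 66.3), 39 had Ighv1-66 (20.97%, 15.4 to 27.5) and 33 had Ighv11-2 (17.7%, 12.5 to 24.0), together 182. The aliquots held 41, 35 and 34 cells of Ighv2-5, then 11, 19 and 9 of Ighv1-66, and 9, 12 and 12 of Ighv11-2. Each of the 3 segments was thus seen in every aliquot. A cluster led by the cell division genes Pclaf and Rrm2 held 57 B cells of SM/J at 20 months, and its 27 assigned cells all had 1 of the 3 segments, 15 of them Ighv1-66. These 2 clusters were also the deepest, with median counts of 12418 and 27462 UMIs per cell.

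Each of the 3 heavy segments came with its own light segment. In SM/J at 20 months, over all kept cells, 132 were assigned to Ighv2-5, and the 115 of them that could also be assigned to a light segment all had Igkv17-127 (100%, 96.8 to 100). The 70 cells of Ighv1-66 all had Igkv17-121 (100%, 94.9 to 100). Of 55 cells of Ighv11-2, 47 had a light segment, and it was Igkv14-126 in 46 (97.9%, 88.7 to 99.9). Among the other cells of that library with both segments assigned, 0 of 127 had Igkv17-127, 0 of 172 had Igkv17-121 and 1 of 195 had Igkv14-126. Most of these others belong to the other 2 groups; of 10 cells with none of the 3 heavy segments, 1 had Igkv14-126 and 9 had other light segments. The pairing was not seen in the few cells of other libraries for Ighv2-5: of 8 cells led by a heavy segment among the Igkv17-127 cells of BL/6 at 12 months, 0 had Ighv2-5. For Ighv11-2 it was seen at 12 months: of 3 assigned cells of BL/6 the 2 with a light segment had Igkv14-126, as did both assigned cells of SM/J. At 20 months in BL/6, of 3 cells led by a heavy segment among the Igkv14-126 cells, 1 had Ighv11-2.

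**Figure D2:**
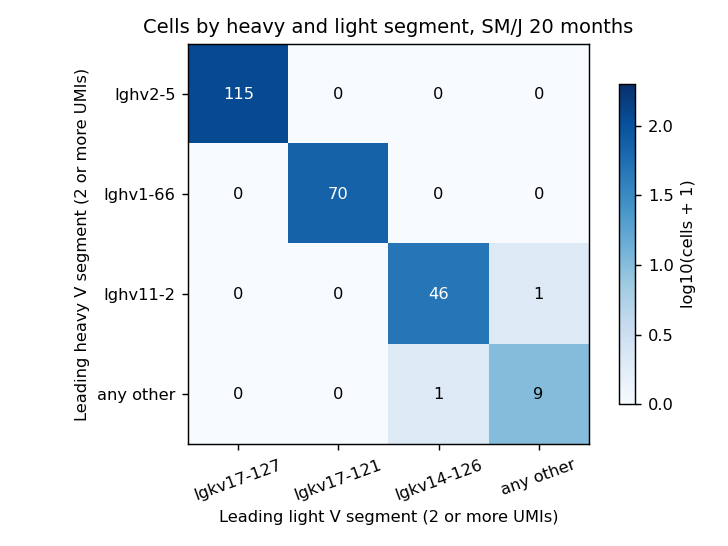
Numbers of SM/J cells at 20 months by assigned heavy V segment (rows) and assigned light V segment (columns), with the count printed in each field and its shade as log10 of cells + 1. The cells of the 3 leading heavy segments fall on 115, 70 and 46 cells of 1 light segment each, with 1 cell outside these fields.

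Counted by light segment, the order of the 3 groups was another one. Of 694 B cells assigned to a light segment in SM/J at 20 months, Igkv14-126 held 290 (41.8%, 38.1 to 45.6), Igkv17-127 held 181 (26.1%, 22.8 to 29.5) and Igkv17-121 held 89 (12.8%, 10.4 to 15.5). A heavy segment was assigned in 29 of the 290, 102 of the 181 and 54 of the 89. The groups differed in heavy V UMIs per 1000 UMIs of Ighm, the constant region of IgM: 8.67 with Igkv14-126, 32.1 with Igkv17-127 and 9.47 with Igkv17-121. Their median depths were 13350, 11590 and 25022 UMIs, and they held 60.5, 64.5 and 353 Ighm UMIs per cell. Shares of heavy segments therefore do not give the sizes of the groups.

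A small part of the V UMIs in these cells fell on other segments. In cells of Ighv2-5, that segment had 544 of 559 heavy V UMIs (97.3%). In cells of Ighv1-66 it had 428 of 504 (84.9%), with 38 on Ighv1-80 (7.54%) and 21 on Ighv14-2 (4.17%), which are 89.0% and 82.1% identical to it. In cells of Ighv11-2, Ighv11-1 had 14 of 218 (6.42%) and no other segment had any. No B cell assigned to 1 of the 3 had a UMI of the heavy segment of another. Light segments of another pair were seen in a few: 4 of 37 Ighv11-2 cells had a UMI of Igkv17-127 (1 with 2 or more), 2 of 119 Ighv2-5 cells had 2 or more of Igkv14-126 and 1 had a UMI of Igkv17-121, and of 54 Ighv1-66 cells 2 had a UMI of Igkv14-126 and 1 of Igkv17-127. Whether reads of 1 transcript were divided between annotated segments was not tested.

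The 3 groups of assigned B cells also differed in other genes, given as CPM, the UMIs of a gene per 1000000 gene UMIs, summed over the cells of each group. Their median depths were 12123, 35178.5 and 14075 UMIs for Ighv2-5, Ighv1-66 and Ighv11-2, and a share of cells with a UMI is not at equal depth between them. Ighm stood at 5377 CPM in Ighv2-5 cells, 11007 in Ighv1-66 cells and 4065 in Ighv11-2 cells. Fras1, an extracellular matrix gene, stood at 33.6, 616 and 63.5 CPM, with a UMI in 100% of the Ighv1-66 cells. Bhlhe41, a regulator of B-1 cells, stood at 109, 94.4 and 186 CPM, and the inhibitory receptor gene Ctla4 at 448, 402 and 302. Zcwpw1 stood at 1383, 1720 and 1473 CPM. The cluster that it leads held 110 of the 119, 39 of the 54 and 33 of the 37 cells of the groups. The rest lay in other clusters, mostly that of the cell division genes Pclaf and Rrm2. The levels given here, that of Mki67 included, are therefore not those of 1 cluster. Mki67, a gene of dividing cells, stood at 90.6, 107.5 and 209.6 CPM, and it was seen in 12.6%, 44.4% and 21.6% of the cells, the highest share being in the deepest group. In the 290 cells of Igkv14-126 it stood at 124.9 CPM. The B-1 surface marker Cd5 stood at 1.80, 1.63 and 1.59 CPM, under its level in the B cells of SM/J at 12 months (8.78).

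Ighv7-1 and Ighv14-1 led another SM/J cluster, that of Fras1, Pigr and Epcam, which held 422 B cells at 12 months and 188 at 20 months. Of its 125 heavy V UMIs at 12 months Ighv7-1 had 54 (43.2%, in 53 cells, 17, 19 and 17 per aliquot), Ighv14-1 had 40 (32.0%, in 38 cells, 9, 15 and 14 per aliquot) and Ighv14-4 had 15. At 20 months Ighv7-1 and Ighv14-1 were seen in 0 of 188 cells each, and Ighv2-2 led with 20 of 66 UMIs in 14 cells. Both Ighv7-1 and Ighv14-1 had a UMI in 6 of the cells at 12 months. The light segment did not separate them: among cells led by a light segment at 1 or more UMI, Iglv2 was found in 11 of 24 with Ighv7-1, in 6 of 12 with Ighv14-1 and in 61 of 116 with no heavy V UMI. Igkv2-109 was found in 8, 3 and 26 of the same cells. At 20 months Iglv2 was found in 0 of 70 cells without a heavy V UMI in this cluster (exact upper bound 5.13%). Igkv2-109 was found in 11 of the same 70 (15.7%, 8.11 to 26.4), against 22.4% (15.2 to 31.1) of such cells at 12 months. The leading heavy segments of the cluster at the 2 ages were thus different ones, although it was defined without them. The light segment Igkv2-109 was found at both ages.

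Ighv11-2 was also found in BL/6, at 12 months mostly in 1 cluster. There 21 of the 22 B cells with a UMI of it lay in a cluster led by Agbl1 and Fcrl5, and the other in one led by Agbl1 and Wfdc21. In the former 8 of 9 B-1 markers were seen and 5 reached the level, with 4 of 5 follicular and 4 of 6 age-associated markers at that level. That was 21 of 336 cells (6.25%, 3.91 to 9.39; 8, 4 and 9 per aliquot), against 0 of 1499 cells in the cluster led by the follicular receptors Fcer2a and Cr2 (exact upper bound 0.246%). Of 11 such cells led by a light segment at 1 or more UMI 10 had Igkv14-126. Over the 86 cells of the Agbl1 and Fcrl5 cluster led by a heavy segment at 1 or more UMI, Ighv11-2 held 21 (24.4%). The effective number there was 11.6. At 20 months it was seen in 0 of 123 cells of the Agbl1 and Fcrl5 cluster (exact upper bound 2.95%). The 2 B cells with a UMI lay in the Pclaf and Fras1 clusters, 1 in each. Its partner Igkv14-126 was still assigned in 4 of those 123 cells, against 16 of 336 at 12 months. In SM/J at 20 months Ighv11-2 was seen in 122 of 805 cells of the Zcwpw1 cluster, in 13 of 57 of the Pclaf cluster and in 0 of 188 of the Fras1 cluster.

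Away from these clusters SM/J usage was more even. The Zcwpw1, Pclaf and Fras1 clusters were left out, a choice made after seeing the data. The effective number over cells led at 1 or more UMI was then 45.6 in BL/6 at 12 months and 38.9 at 20 months, against 36.5 and 23.2 for SM/J. These rest on 448, 225, 186 and 128 cells. The number grows with the cells counted, so the 4 values are not at equal cells. Ighv3-2, annotated as a pseudogene, then led SM/J at 12 months with 10 of 186 cells (5.38%). Ighv2-2 led at 20 months with 19 of 128 (14.8%). Of the latter 15 lay in a cluster led by Sox5, in which 5 of 9 B-1 markers, 4 of 6 age-associated markers and 0 of 5 follicular markers were seen and reached the level.

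Counted by family, the strains differed at both ages in family 1. Over cells led at 1 or more UMI it held 213 of 448 cells of BL/6 at 12 months (47.5%) and 53.5% at 20 months, against 17.5% and 18.8% in SM/J. The difference was -30.0 percentage points at 12 months (-36.1 to -23.3) and -34.7 at 20 months (-41.7 to -27.4), and in every aliquot of SM/J the share was under that of every aliquot of BL/6. At 20 months family 2 differed by about as much in the other direction (32.3 points, 26.6 to 37.1), and over assigned cells it differed by more than family 1 (48.8 points against -16.5). The difference in family 1 was smaller where the 3 clusters above were left out, at 47.5% and 54.2% for BL/6 and 24.7% and 21.9% for SM/J. In the clusters led by Fcer2a and by Cpne4, in both of which 5 of 5 follicular markers were seen, it stood at 51.1%, 56.2%, 29.8% and 29.4%. Most BL/6 cells of that count lay in the Fcer2a cluster and most SM/J cells in the Cpne4 cluster.

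Between ages the family shares differed most in SM/J. From 12 to 20 months in SM/J family 2 went from 9.47% to 39.7% of cells led (30.3 points, 24.7 to 35.2) and family 11 from 1.75% to 24.4% (22.7 points, 18.7 to 26.5). Family 7 went from 17.5% to 1.19% (-16.4 points, -21.2 to -12.2) and family 14 from 16.8% to 1.36% (-15.5 points, -20.3 to -11.4). Families 5 and 3 were lower by smaller amounts, at -8.20 and -6.28 points, and family 1 differed by 1.30 points (-4.37 to 6.50). In BL/6 family 11 went from 4.91% to 0.877% (-4.03 points, -6.53 to -1.23), and family 1 differed by 5.96 points (-1.996 to 13.8). The shares of a library sum to a fixed total, so a family that takes more leaves less for the others.

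**Figure D3:**
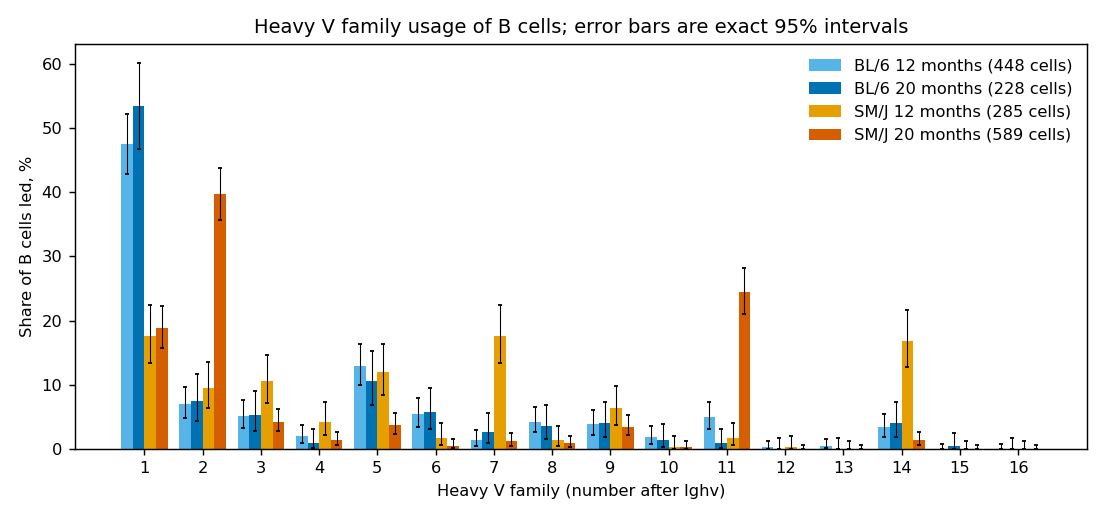
Share of B cells led by each of the 16 heavy V families at 1 or more UMI, in percent, in the 4 libraries, with exact 95% intervals as error bars. Family 1 is the highest in both BL/6 libraries, at 47.5% and 53.5%, while family 2 at 39.7% and family 11 at 24.4% are the highest in SM/J at 20 months.

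The strains also differed along the locus. Members were ranked by position, from rank 1 nearest the D segments, and cells led by a segment of rank above 92.5 were called distal. These were 211 of 448 cells in BL/6 at 12 months (47.1%, 42.4 to 51.8) and 50.9% at 20 months, against 15.8% (11.8 to 20.5) and 18.2% (15.1 to 21.5) in SM/J. Without the cells of Ighv2-5, Ighv1-66 and Ighv11-2 the shares were 49.9%, 51.4%, 15.6% and 17.1%. In the Fcer2a and Cpne4 clusters they were 49.5%, 52.9%, 26.4% and 25.5%. Of the 93 members of family 1, 79 have such a rank, so this is not independent of the family's share. Whether SM/J carries fewer distal segments or segments that the reference does not match was not tested.

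**Figure D4:**
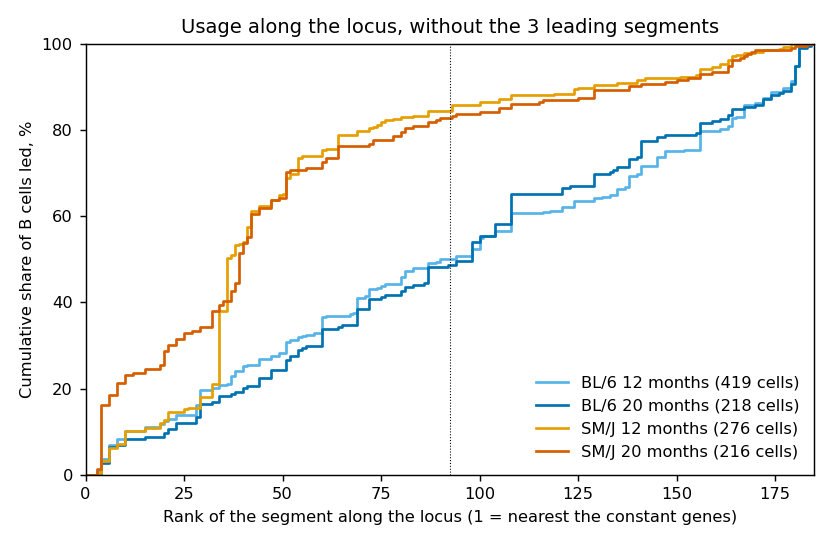
Cumulative share of B cells led at 1 or more UMI, in percent, against the rank of the segment along the locus from the D end, for the 4 libraries without the cells of the 3 leading segments. The dotted line stands at rank 92.5; past it lie 49.9% and 51.4% of the BL/6 cells and 15.6% and 17.1% of the SM/J cells.

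Levels of single segments were compared as log2 ratios of CPM + 1 in the summed B cells, over genes with 20 or more UMIs in the 2 libraries, and 2-fold or more was counted as called. Between 172 and 176 of the 185 members fell under that minimum, depending on the comparison. A member that passed through 1 library had to differ, so the counts describe and support nothing. In BL/6, 20 over 12 months, 0 of 12 members were called higher and 1 lower, where 3.88% of all genes were higher and 0.973% lower. That member was Ighv11-2, at 2.85 and 0.651 CPM (log2 ratio -1.22, -1.85 to -0.28), or 26 and 3 UMIs, the 3 from 1 aliquot. It was not called without aliquot 1 of either age, or with a pseudocount of 5 CPM, where 0 members were. The rest lay between -0.84 (Ighv1-64) and 0.61 (Ighv1-81).

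In SM/J, 20 over 12 months, 3 of 11 members were called higher and 3 lower, against 5.61% and 6.13% of all genes. Ighv2-5 stood at 0.798 CPM at 12 months and 21.9 at 20 months (log2 ratio 3.67, 3.05 to 4.16), and at 0.547 and 1.95 CPM in BL/6. Ighv1-66 stood at 0.399 and 13.2 CPM (3.35, 2.69 to 3.73), and at 0.219 and 1.30 in BL/6. Ighv11-2 stood at 0.798 and 9.86 CPM (2.59, 1.96 to 3.09). These 3 were thus each under 1 CPM in SM/J at 12 months. Ighv7-1 went the other way, from 7.45 to 0.211 CPM (-2.80, -3.06 to -2.35), as did Ighv14-1, from 6.39 to 0.264 CPM (-2.55, -2.85 to -2.06). The third lower member was the pseudogene Ighv4-2, with 16 and 4 UMIs (-1.37, -1.73 to -0.78). The sum of all members moved far less, from 48.7 to 64.2 CPM (0.39, 0.22 to 0.56).

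**Figure D5:**
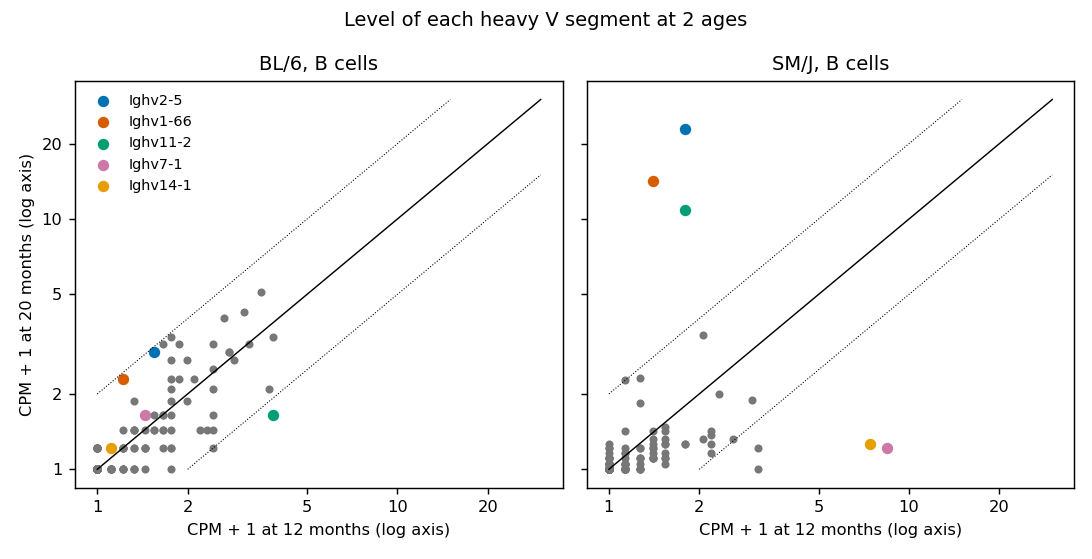
Level of each heavy V segment in B cells at 12 months (horizontal axis) and 20 months (vertical axis) in CPM + 1 on log scales, for BL/6 and SM/J, with dotted lines at 2-fold. In SM/J, Ighv2-5, Ighv1-66 and Ighv11-2 lie above the upper line and Ighv7-1 and Ighv14-1 under the lower one, while in BL/6 Ighv11-2 is the called member.

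At 12 months, SM/J over BL/6, 3 of 13 members were called higher and 6 lower, against 6.59% and 3.99% of all genes. The higher ones were Ighv14-1 (2.74, 2.11 to 2.91), Ighv7-1 (2.56, 1.90 to 2.98) and Ighv14-4 (1.12, 0.35 to 1.64). Ighv1-82 had 26 UMIs in BL/6 and 0 in SM/J (-1.94, -1.94 to -1.25). With the 0 set to 3 UMIs and no pseudocount it was 7.13-fold lower, counting error left aside. Ighv1-26 stood at 2.52 and 0.266 CPM (-1.47), and Ighv1-64, Ighv6-3, Ighv11-2 and Ighv3-6 at ratios of -1.29 to -1.01. At 20 months 4 of 9 members were called higher and 2 lower, against 10.3% and 14% of all genes. The higher ones were Ighv2-5 (2.96), Ighv11-2 (2.72), Ighv1-66 (2.63) and Ighv11-1 (1.18, 0.26 to 1.18). Ighv11-1 had 0 UMIs in BL/6 and 24 in SM/J, 1.94-fold higher with the 0 set to 3 UMIs and no pseudocount, counting error left aside. Ighv1-26 stood at 4.13 and 0.105 CPM (-2.21, -2.44 to -1.64) and Ighv3-6 at 3.26 and 0.264 (-1.75, -2.19 to -1.08), so both were lower in SM/J at each age. The strain comparisons share their libraries with the age comparisons. Other segments known for a specificity were rare: Ighv12-3, the other classic phosphatidylcholine segment, had 1, 0, 0 and 0 UMIs in the 4 libraries, and Ighv1-72, known from nitrophenyl responses, had 13, 1, 1 and 8.

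The genes that a heavy chain needs beside its V segment were read in the same B cells. Of 20 such genes, 15 were tested between ages in each strain, with 2 called higher and 1 lower in BL/6, and 5 higher and 4 lower in SM/J. Of all genes 3.88% were higher and 0.973% lower in BL/6, against 5.61% higher and 6.13% lower in SM/J. Ighm stood at 2212, 1869, 2090 and 4646 CPM (BL/6 at 12 and 20 months, then SM/J). Ighd, the IgD constant region of mature naive cells, stood at 536, 503, 265 and 50.5 CPM. Ighg3 stood at 5.69, 3.47, 13.97 and 73.1 CPM, and at 138.6 CPM in Ighv2-5 cells, 125.8 in Ighv1-66 cells and 42.9 in Ighv11-2 cells. Igha stood at 22.6, 106, 5.46 and 8.01 CPM. Of the recombination genes Rag1 and Rag2 had 0 UMIs in every library and Dntt had 3, 0, 2 and 3. Between strains 16 genes were tested at 12 months, with 4 higher and 4 lower in SM/J, where 6.59% and 3.99% of all genes were. At 20 months 14 were tested, with 6 higher and 3 lower, against 10.3% and 14% of all genes.

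Cells with 10 or more Jchain UMIs, the rule for plasma cells, numbered 3, 48, 45 and 84, but their markers differed between the strains. In BL/6 they lay mostly in a cluster led by Tnfrsf17 and Derl3 (3 of 3 and 43 of 48), and 85.4% of those at 20 months had a UMI of Tnfrsf17, a receptor of plasma cells. In SM/J 40 of 45 at 12 months lay in the Fras1 cluster and 65 of 84 at 20 months in the Zcwpw1 cluster, and Tnfrsf17 was seen in 6.67% and 5.95%. Ms4a1, a gene of B cells that plasma cells lose, was seen in 20.8% of those in BL/6 at 20 months and in 93.3% and 91.7% in SM/J. Other plasma cell markers were seen in many cells of both strains at 20 months, here with SM/J first: Mzb1 in 100% of both, Xbp1 in 88.1% against 95.8%, Prdm1 in 65.5% against 66.7% and Irf4 in 79.8% against 91.7%. Derl3 was seen in 65.5% against 87.5% and Sdc1 in 10.7% against 41.7%. At 12 months in SM/J Mzb1 was seen in 97.8%, Xbp1 in 31.1% and Prdm1 in 24.4%. Since markers of B cells and of plasma cells were both seen in SM/J, the cells are called Jchain-high below.

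Jchain-high cells of BL/6 at 20 months held 7.67 heavy V UMIs each, and 37 of 48 could be assigned, over 23 segments. Ighv9-3 led with 60 of 368 UMIs (16.3%, 12.7 to 20.5), followed by Ighv1-76 with 29, Ighv5-16 with 25, Ighv1-5 with 23 and Ighv1-81 with 22. The effective number was 16.9. The 3 cells at 12 months had 26 UMIs of Ighv9-3, 9 of Ighv1-78 and 8 of Ighv9-4, 1 cell each. Igha stood at 45017 CPM in the 48 cells. In SM/J at 20 months Ighv1-66 had 200 of 615 UMIs, Ighv2-5 had 193 and Ighv11-2 had 125, then Ighv1-9 had 35 and Ighv1-80 had 16, and 47 of 50 assigned cells had 1 of the 3 leading segments. In SM/J at 12 months Ighv14-1 had 16 of 38 UMIs, Ighv7-3 had 7, Ighv3-8 and Ighv7-1 had 5 each and Ighv7-2 had 3. The Jchain-high cells of each SM/J library were thus led by segments of its Zcwpw1 or Fras1 cluster.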

How the data were processed

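The deposited matrices hold UMI counts per gene and cell, made by the authors with Cell Ranger 7.0.1 per the file headers; the submitters' processing notes also name Cell Ranger, Seurat 4.3.0 and build mm10. How reads that match several segments were counted is not given in the sources used here. Cells with 500 or more UMIs, 200 or more genes and at most 10% mitochondrial UMIs were kept, and called doublets (Scrublet, expected rate 0.06, per 10x sample) were left out, in scanpy 1.11.5. Kept cells were clustered on 2000 variable genes, 30 components and 15 neighbours (Leiden, resolution 1.0), without mitochondrial, immunoglobulin, T cell receptor, Jchain, Xist and Y-linked genes. B cells had 1 or more Cd79a UMI and fewer than 10 of Jchain; 2 or more UMIs, ahead of any other segment, assigned a cell.

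Shares have exact Clopper-Pearson 95% intervals, differences of shares Newcombe intervals and ratios conditional binomial intervals. UMIs of a library are few, with 304 to 1217 heavy V UMIs in its B cells, and this limits every share. With 1 library per strain and age no test was run. The methods were tested on simulated data. Columns of per-sample values left unused number 0. Named segments are the 5 with most assigned cells per library, the leader of each cluster with 30 or more assigned cells, the 5 with most UMIs among Jchain-high cells, the 3 highest and 3 lowest called ratios between ages, and 4 of known specificity (Ighv11-2, Ighv12-3, Ighv7-1 and Ighv1-72); others that the text singles out were chosen after their values were seen. One gene of the heavy chain list is not reported here. The members and lists were chosen with earlier results of these data known. Alternatives covered the UMI minimum, filters, thinning, clustering, scaling (TMM of edgeR 4.0.16), pseudocount and each aliquot.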

Additional observations from a re-analysis of the deposited data

Results flagged for a closer look

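A rule flagged shares with all aliquots of 20 months above all of 12 months in 1 strain and under them in the other. The aliquot ranges given here follow from that rule, so they describe and support nothing. By this rule Ighv11-2 moved in opposite ways with age in the 2 strains. Its share of B cells led at 1 or more UMI was 20.5 percentage points higher at 20 than at 12 months in SM/J, where the aliquots lay at 0.980% to 1.90% and at 19.7% to 23.0%. In BL/6 it differed by -4.03 points, from aliquots of 2.76% to 6.43% to aliquots of 0% to 2.22%. That was 22 cells and 2 cells, the 2 from 1 aliquot. The light partner Igkv14-126 held 18 of 180 light-assigned B cells of BL/6 at 12 months and 5 of 93 at 20 months. The intervals of these shares overlap (6.0% to 15.3% and 1.8% to 12.1%). Family 11, which holds Ighv11-2 and the near-identical Ighv11-1, differed by 22.69 points in SM/J and by -4.03 points in BL/6. In BL/6 these are the same cells, so the family is no second result. Over assigned cells, which are few, the family differed by 8.07 points in SM/J (-8.87 to 15.6) and by -1.44 points in BL/6 (-8.86 to 9.50), and the aliquots of the 2 ages overlapped in both strains. The lower level in BL/6 was not called at 2-fold without aliquot 1 of either age. The difference between the strains was not tested, since each strain and age is 1 library.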

How the results depend on the processing

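Of 349 alternative values for 76 results 293 were counted as same and 53 as moved. A share was same inside the exact interval of the reported one, which is wide where few cells were assigned. An effective number or a count of called segments was same within a fixed fold of the reported one. Single log2 ratios were same on the same side of 2-fold, and only they could reverse, which 0 did. Single ratios were recomputed with 2 other scalings, under which 3 values near 2-fold crossed it: Ighv11-1 in SM/J between ages, at 1.09 with TMM scaling and 1.02 with totals without immunoglobulin genes, and Ighv3-6 at 12 months, at -0.99 with TMM. TMM moved the median ratio of all genes by -0.101 (log2) for BL/6, 0.145 for SM/J, and by 0.0178 and 0.257 between strains at 12 and 20 months. Ighv2-5 led SM/J at 20 months in 12 of 14 alternatives. With 3 or more UMIs the effective number was 12.2 and 7.12 in BL/6 at 12 and 20 months and 2 for the younger SM/J library, where 2 cells remained, the leading share was 50% and family 1 had 0%; family 1 had 35.3% in SM/J at 20 months, and the 1 cell left in the Fras1 cluster there gave 100%. With 5 or more UMIs SM/J at 20 months gave a leading share and a family 1 share of 59.4% (Ighv1-66), an effective number of 2.02, and 47.8% in the Zcwpw1 cluster; no cell was left to count in some libraries, which have no value. With 1 or more UMI the effective number was 39.7 for the older BL/6 library and 6.44 for the older SM/J one, whose leading share was 29.5%, family 1 share 18.8% and Zcwpw1 cluster share 43.5%. Thinned to 2000 UMIs, with 5 to 22 assigned cells, the effective number was 20.2 and 5.33 for BL/6 and 5 for the younger SM/J library; BL/6 at 20 months had 25% for the leading segment and 25% for family 1, and SM/J at 12 months 40% for family 1. Counted in UMIs, at 20 months, the effective number was 39.4 for BL/6 and 5.36 for SM/J, with a leading share of 34.2% in the latter. With at most 5% mitochondrial UMIs SM/J at 20 months had a leading share of 39.1% and a family 1 share of 45.7%; without cells that had a Cd3e, Lyz2 or Nkg7 UMI these were 56.2% and 12.4%, and the effective number in SM/J at 12 months was 7.26. At Leiden resolution 2.0 the leading share in the Zcwpw1 cluster was 73%.

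Called segments in BL/6 between ages, 1 of 12 as reported, numbered 0 with 50 or more UMIs, which none of them reached, 0 of 12 with a pseudocount of 5 CPM and 2 of 12 with 0.5 CPM. At 12 months between strains, 9 of 13 as reported, they numbered 1 of 1 with 50 or more UMIs, 18 of 104 with no minimum and 2 of 13 with a pseudocount of 5 CPM. At 20 months, 6 of 9 as reported, they numbered 3 of 4, 18 of 103 and 3 of 9. Leaving out 1 aliquot gave 0 to 2 in BL/6 (0 without aliquot 1 of either age, 2 without aliquot 2 of 12 months) and 2 to 7 at 12 months between strains (2, 5 and 4 without BL/6 aliquots 1, 2 and 3). It gave 37.5% to 100% for the leading segment of the Fras1 cluster in SM/J at 20 months, with 100% of 3 cells without aliquot 2. In choices added after seeing the data, leaving out the Zcwpw1, Pclaf and Fras1 clusters gave 24.7% for family 1 and 22% for distal segments in SM/J at 12 months; the Fcer2a and Cpne4 clusters alone gave 29.8% and 26.4% there and 29.4% and 25.5% at 20 months. The cause was not tested. No paired analysis was possible because each strain and age is 1 library and no result comes from a test.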

Other observations

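The cells that the filters removed held few assigned ones. They numbered 153 to 207 per library, and 0, 2, 0 and 2 of them could be assigned to a heavy segment (BL/6 at 12 and 20 months, then SM/J); the 2 of SM/J at 20 months had Ighv2-5 and the 2 of BL/6 were called doublets. In the 12-month libraries 16 and 24 kept cells had most tag UMIs of a tag that is not 1 of their library's 3; none of them was assigned to Ighv2-5, Ighv1-66 or Ighv11-2. Light segments of the leading SM/J pairs were also found in the other libraries: Igkv14-126 held 18 of 180 light-assigned B cells of BL/6 at 12 months (10.0%, 6.03 to 15.3), 5 of 93 at 20 months and 12 of 121 of SM/J at 12 months (9.92%), Igkv17-127 held 12 (6.67%), 3 and 5, and Igkv17-121 held 3, 3 and 1.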
